A study of Mus musculus with 2 samples.

Results

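The 8 microRNA (miRNA) genes Mir128-1, Mir128-2, Mir129-1, Mir129-2, Mir137, Mir149, Mir153 and Mir488 were picked by symbol as genes of miRNAs known from maturing neurons. They are 8 of the 1973 annotated miRNA genes counted in the newborn mouse hindbrain. The tissue came from mice of strain B6NCrl on the day of birth (age 0 day), and no treatment, genotype or sex is labelled. There was 1 group of 2 libraries, made from small RNAs of under 30 nucleotides, each from a single hindbrain, that of pup 3 (replicate 2) and that of pup 1 (replicate 1). The labels give both pups the same donor identifier. Nothing was contrasted by design, so the comparisons open to these data are between the 8 genes and between the 2 pups, and a p-value between the pups covers counting error only.

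A miRNA gene is transcribed as a hairpin precursor, often from within a longer host gene, and Drosha and Dicer cut it to a short duplex. A strand of the duplex is loaded into an Argonaute protein and represses messenger RNAs that pair with its seed, bases 2 to 8 from its 5′ end. miR-128 is enriched in brain and restrains neuronal excitability, and miR-129-5p acts on dendritic messenger RNAs, among them that of the potassium channel Kv1.1. miR-137 targets the histone methyltransferase Ezh2 and shapes dendrites and synapses, and its locus is linked to schizophrenia in humans. miR-153 targets the messenger RNAs of alpha-synuclein and the amyloid precursor protein. The miRNA of Mir488 is likewise brain-enriched.

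All 8 genes matched a RefSeq hairpin (GRCm38.p6), with 15 mature entries that hold 13 distinct sequences of 21 to 23 bases. The sequences below are 9 of these, with at least 1 product of each gene, shown to tell which products 2 genes share. Capitals mark the seed.
miR-128-3p: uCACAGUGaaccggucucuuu
miR-128-1-5p: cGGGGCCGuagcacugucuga
miR-128-2-5p: gGGGGCCGaugcacuguaagaga
miR-129-5p: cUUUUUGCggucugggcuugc
miR-129-2-3p: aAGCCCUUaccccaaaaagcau
miR-137-3p: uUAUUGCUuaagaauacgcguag
miR-149-5p: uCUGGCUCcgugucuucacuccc
miR-153-3p: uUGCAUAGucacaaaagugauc
miR-488-3p: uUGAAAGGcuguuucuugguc

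The 15 entries carried 12 distinct seeds, and no seed was shared between 2 different families among the 8 genes. miR-128-3p was the same sequence in Mir128-1 and Mir128-2, and miR-129-5p was the same in Mir129-1 and Mir129-2. RefSeq held no mature entry for the 3p arm of Mir129-1, so that arm was not compared. The Mir129-1 precursor does contain the seed of miR-129-2-3p. The 5p products of the Mir128 copies differed along their length but had the same seed, GGGGCCG. Outside the 8 genes, the RefSeq mature miRNAs shared 1 of these seeds. This was AGGGAGG of miR-149-3p, also found in miR-1943-5p, miR-7016-5p and miR-6967-5p. Levels are in CPM, the reads on a gene's own strand per 1000000 such reads over all miRNA genes of the library. Mir1943 had 1.12 (pup 3) and 2.24 (pup 1) CPM, and Mir7016 had 0.641 (pup 3) and 1.43 (pup 1) CPM. Both are far under every gene of the set.

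The precursors of the copied genes are shown because reads that fit 2 places in the genome were given to no gene. Capitals mark runs of 10 or more bases that also occur in the other copy.
Mir128-1: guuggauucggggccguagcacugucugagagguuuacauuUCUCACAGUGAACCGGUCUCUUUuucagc
Mir128-2: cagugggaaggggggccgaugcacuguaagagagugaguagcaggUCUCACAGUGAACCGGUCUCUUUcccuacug
Mir129-1: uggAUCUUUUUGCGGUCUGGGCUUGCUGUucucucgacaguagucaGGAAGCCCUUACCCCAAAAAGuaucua
Mir129-2: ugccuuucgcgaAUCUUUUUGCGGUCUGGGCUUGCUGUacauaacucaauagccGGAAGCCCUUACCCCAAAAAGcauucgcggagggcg

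In a global alignment the Mir128 precursors were identical at 55 of 77 positions (71.4%), with a longest shared stretch of 23 bases that holds the whole of miR-128-3p. The Mir129 precursors were identical at 63 of 92 positions (68.5%). Their longest shared stretch of 26 bases holds the whole of miR-129-5p, and 19 of the 22 bases of miR-129-2-3p also lie in the Mir129-1 precursor. For miR-128-1-5p and miR-128-2-5p the longest run found in the other copy was 7 bases. A read of exactly miR-128-3p or miR-129-5p fits both copies, so the counts of these 4 genes leave such reads out. Reads at several places made up 39.4% of the reads in the table of pup 3 and 37.9% in that of pup 1. In Mir137, Mir149, Mir153 and Mir488, 0 of the 22-base windows of the precursor occurred in another annotated miRNA precursor. The tables give a count per gene and do not separate the 5p from the 3p product.

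All 8 genes were detected, meaning at least 2 CPM in both pups, against 20.6% of the 1973 genes and 38.3% of the 1051 genes with a Mir symbol. The 8 genes were chosen with earlier results of these data known, so their detection and levels beside all genes are a description and no test. Depth was 6238680 own-strand counts in pup 3 and 4906127 in pup 1, and none of the 8 genes had an opposite-strand count in either pup. Together they held 231249 counts in pup 3 and 201260 in pup 1. Their share was 3.71% in pup 3, with Clopper-Pearson 95% limits of 3.69 and 3.72, and 4.10% in pup 1, with limits of 4.08 and 4.12, a mean of 3.90% ± 0.280 (SD, n = 2). Intervals here cover counting error only and take each read as a separate molecule. Of the 8 genes, 6 reached 1000 CPM in both pups. This level was reached by 97 of the 1973 genes (4.92%), all of them among the 407 detected genes. The median of the mean levels of the 8 genes was 3397 CPM, beside 178 CPM over the 407 detected genes.

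**Figure D1:**
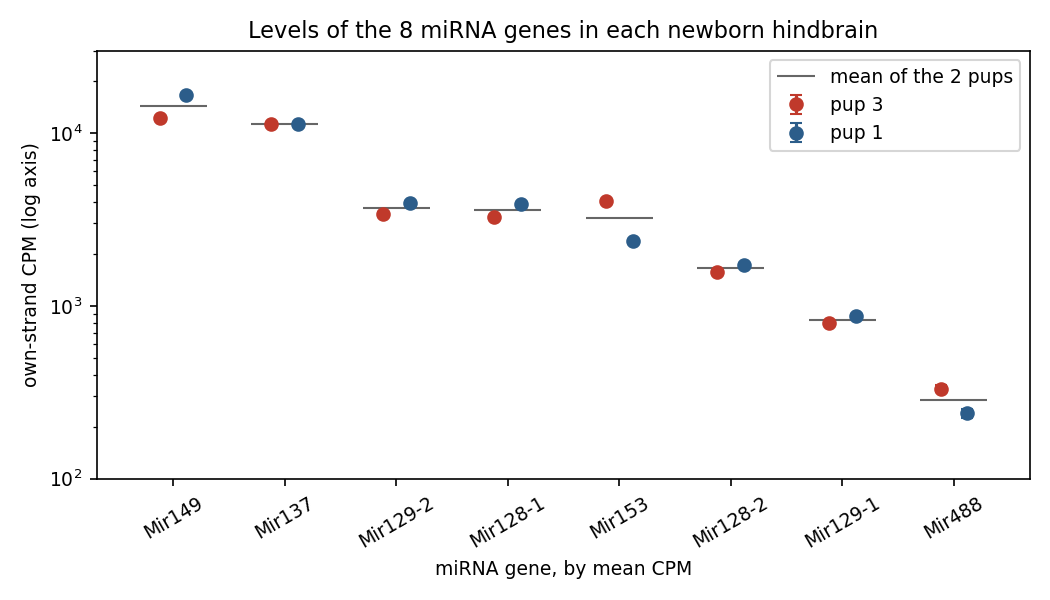
Own-strand CPM (log axis) of each miRNA gene in pup 3 (red, left) and pup 1 (blue, right), with exact binomial 95% intervals that are mostly smaller than the points, and the mean of both pups as a grey line. Mir149 and Mir137 stand above 10000 CPM, and Mir153 and Mir488 are higher in pup 3 while Mir149 is higher in pup 1.

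Mir149 and Mir137 led the set in counted reads. Together they took 2.36% of own-strand counts in pup 3 and 2.79% in pup 1, more than the other 6 genes combined. The Mir128 and Mir129 genes among these 6 lack the reads of shared mature sequences, so their counts, here and below, are incomplete. Mir149 had 76753 counts in pup 3 and 81313 in pup 1, or 12303 and 16574 CPM, a mean of 14438 ± 3020 CPM (SD, n = 2) that ranked 14 among all miRNA genes. Mir137 had 70744 counts in pup 3 and 55748 in pup 1, or 11340 and 11363 CPM, a mean of 11351 ± 16.5 CPM and rank 18. In CPM the pups were nearly equal for Mir137, whereas Mir149 was lower in pup 3, and the ranges of these 2 genes did not overlap. Mir149 over Mir137 was 1.08 in pup 3 and 1.46 in pup 1. Neither precursor has a near copy among the annotated miRNA precursors, unlike those of the Mir128 and Mir129 genes. Genes outside the set that have copies also lack the reads of shared sequences. Ranks, shares and medians over all genes, here and elsewhere, therefore concern reads that fit a single place.

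In counted reads, Mir129-2, Mir128-1 and Mir153 formed a middle tier whose ranges over the pups overlapped. Mir129-2 stood above Mir128-1 by a small margin in both pups. Mir153 changed place between the pups, so its position in the tier is not resolved. Mir129-2 had 21370 counts in pup 3 and 19452 in pup 1, or 3425 and 3965 CPM (mean 3695 ± 381 CPM, rank 58). Mir128-1 had 20363 counts in pup 3 and 19183 in pup 1, or 3264 and 3910 CPM (mean 3587 ± 457 CPM, rank 59). Mir153 had 25195 counts in pup 3 and 11645 in pup 1, or 4039 and 2374 CPM (mean 3206 ± 1177 CPM, rank 67). Mir153 was thus the highest of the tier in pup 3 and the lowest in pup 1, with rank 48 in pup 3 and rank 76 in pup 1.

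The second copies and Mir488 were lower, with ranges clear of the genes above them. Mir128-2 had 9799 counts in pup 3 and 8477 in pup 1, or 1571 and 1728 CPM (mean 1649 ± 111 CPM, rank 88). Mir129-1 had 4954 counts in pup 3 and 4274 in pup 1, or 794 and 871 CPM (mean 833 ± 54.5 CPM, rank 114). Mir488 had 2071 counts in pup 3 and 1168 in pup 1, or 332 and 238 CPM (mean 285 ± 66.4 CPM, rank 180). Even Mir488, the lowest, lay above the 178 CPM median of the detected genes in each pup.

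**Figure D2:**
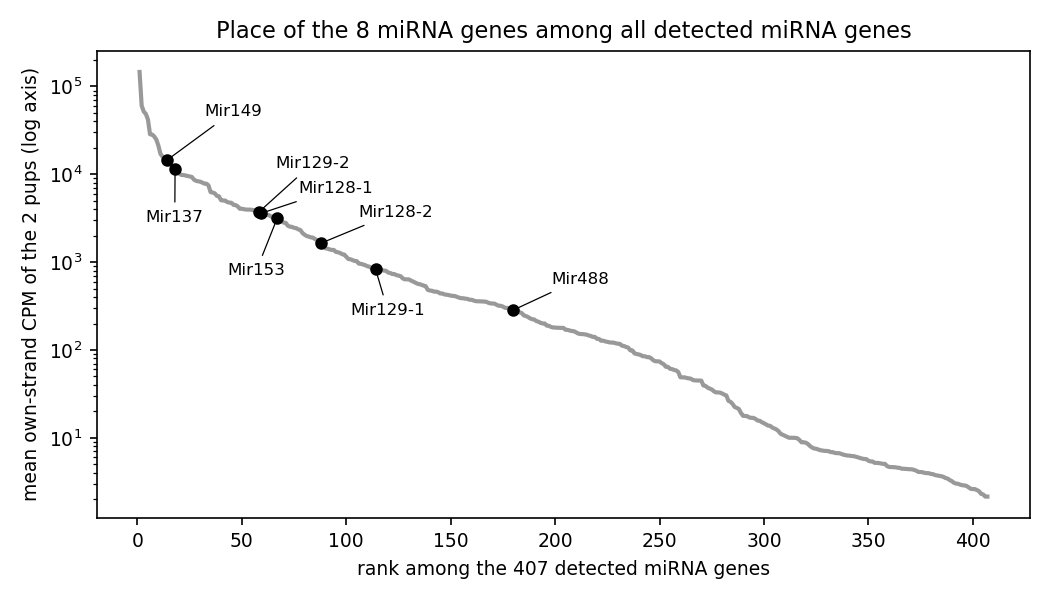
Mean own-strand CPM of both pups (log axis) against rank for the 407 detected miRNA genes (grey line), with the 8 miRNA genes as black points. The points run from rank 14 for Mir149 to rank 180 for Mir488.

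Counts were not divided by length for these levels, since a miRNA read spans its whole mature product. Per kilobase of annotated precursor, a scale chosen after the values were seen, the middle tier changes order. Mir128-1 then stands at 51243 CPM per kilobase, Mir153 at 46464 and Mir129-2 at 41057, and the other 5 genes keep their places. Ligation and amplification also favour some small RNA sequences, so a level of one miRNA gene beside another is a capture-dependent level.

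Within each pair of copies, the ratio was similar in both pups. Mir128-1 over Mir128-2 was 2.08 in pup 3 and 2.26 in pup 1 (mean 2.17 ± 0.131, SD, n = 2). Mir129-2 over Mir129-1 was 4.31 in pup 3 and 4.55 in pup 1 (mean 4.43 ± 0.168). These ratios concern the reads that fit a single copy, and reads of the shared mature sequences are in neither count. Of the 22-base windows of the precursors, 2 of 49 in Mir128-1 and 2 of 55 in Mir128-2 occur in another precursor, as do 5 of 52 in Mir129-1 and 5 of 69 in Mir129-2.

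All 8 genes lay within a longer annotated gene on the same strand, as did 70.3% of detected miRNA genes. An intron held 6 of them (47.9% of detected genes). For 5 it was an intron of a protein-coding host (40% of detected genes), for Mir129-2 an intron of a noncoding host, and for Mir137 and Mir129-1 an exon of a noncoding host (any exon: 22.4% of detected genes). Positions below are on GRCm38, the assembly of mm10, as annotated in GENCODE M21.

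Mir149 (chr1:92850378-92850443, plus strand) lies in an intron of Gpc1, which encodes the heparan sulfate proteoglycan glypican-1. Mir128-1 (chr1:128202361-128202430, plus strand) lies in an intron of R3hdm1, and Mir128-2 (chr9:112118636-112118711, minus strand) in an intron of Arpp21, which encodes a cAMP-regulated phosphoprotein of neurons. The hosts of the Mir128 copies lie on different chromosomes, and the copies have similar places along them, at 73.7% of the length of R3hdm1 and 68.6% of that of Arpp21. Mir153 (chr12:117250817-117250885, plus strand) lies 765 kb from the start of Ptprn2, a gene of 791 kb for a dense-core vesicle protein, and so near the end of the longest host of the set. Mir488 (chr1:158505625-158505733, plus strand) lies in an intron of Astn1, which encodes astrotactin 1, an adhesion protein used by migrating cerebellar granule neurons.

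Mir137 (chr3:118433857-118433929, plus strand) overlaps an exon of Gm26871, at 3.53 kb from its start. Mir129-1 (chr6:29022619-29022691, plus strand) overlaps an exon of the lincRNA Gm3294. Mir129-2 (chr2:94241364-94241453, minus strand) lies in an intron of the lincRNA Mir670hg, which also holds Mir670. Mir670 had 417 counts in pup 3 and 421 in pup 1 (mean 76.3 ± 13.4 CPM), far fewer than Mir129-2 in the same host. Gm24155, annotated as a miRNA gene 792 bases from Mir137 on the same strand, had 2 counts in pup 3 and 0 in pup 1, where a count of 0 allows up to 0.611 CPM. Expression of the host genes was not analysed here.

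**Figure D3:**
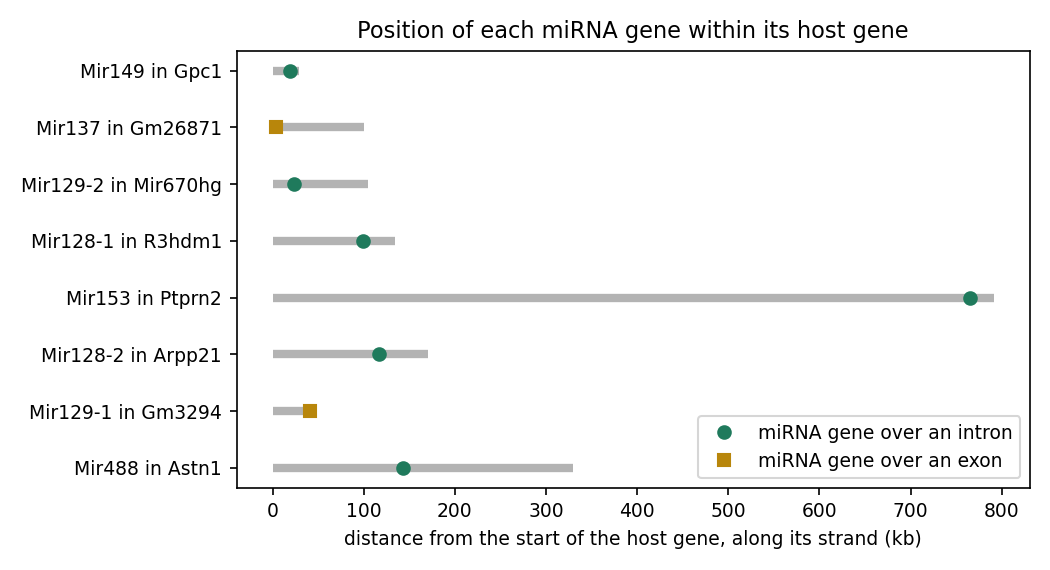
Host gene of each miRNA gene drawn as a grey bar from its start to its end, in kb along its own strand, with the miRNA gene as a green circle (intron) or a gold square (exon). Mir137 sits 3.53 kb from the start of Gm26871, and Mir153 sits 765 kb into Ptprn2.

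Other miRNA genes known for enrichment or function in neurons were set beside the 8 genes, from a list of 30 symbols that leaves the 8 out. Of these, 29 had an entry in the tables, 25 were detected and 7 reached 1000 CPM in both pups. They held 3.27% of own-strand counts in pup 3 and 3.52% in pup 1, slightly under the share of the 8 genes. The median of their mean levels was 384 CPM. Mir135b led them with 10554 CPM in pup 3 and 9826 CPM in pup 1 (mean 10190 ± 514 CPM), just under Mir137. Mir379 (3963 ± 352 CPM) and Mir433 (3884 ± 161 CPM) followed, with means above that of Mir129-2, the highest mean of the middle tier. Mir708 (2437 ± 217 CPM) came next, with a mean under that of Mir153, the lowest of that tier. The Mir124a copies were near or under the detection level. Mir124a-1 had 25 counts in pup 3 and 73 in pup 1, and Mir124a-2 and Mir124a-3 were not detected. The Mir9 copies differed, with 2406 counts in pup 3 and 2640 in pup 1 for Mir9-3 (mean 462 ± 108 CPM), while Mir9-2 was not detected. miR-124 and miR-9 each have several copies with the same mature sequence, and reads of such sequences are in no gene's count. Other copies in the list, such as Mir138-1 and Mir138-2, have the same limit. The part of the reads left out this way may differ between the list and the 8 genes. Their shares and medians are therefore not compared like for like.

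**Figure D4:**
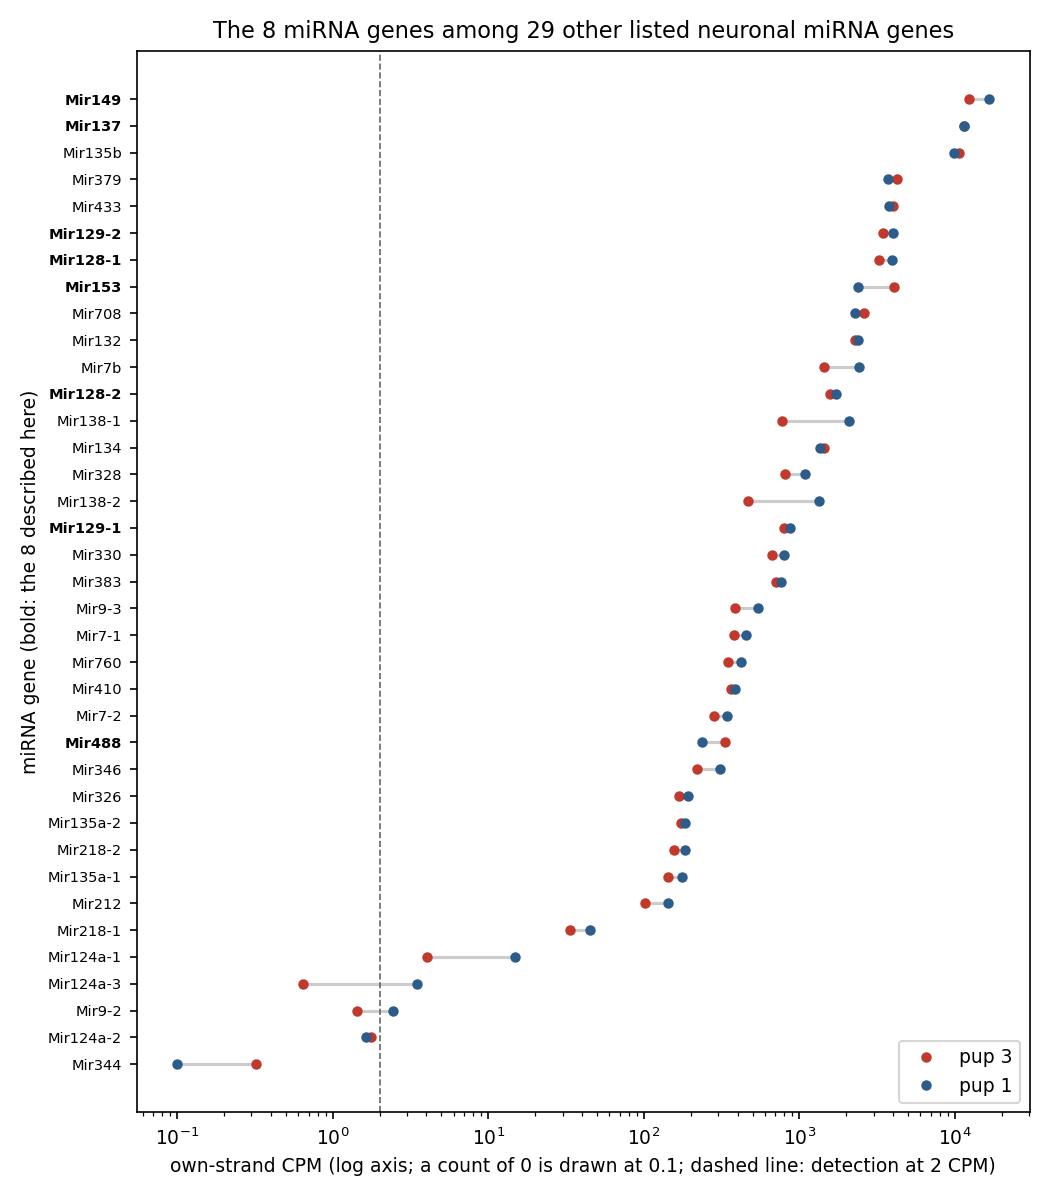
Own-strand CPM (log axis) in pup 3 (red) and pup 1 (blue) of the 8 miRNA genes (bold) and the 29 other listed neuronal miRNA genes, with the detection level of 2 CPM as a dashed line. Mir149 and Mir137 top the plot, the 8 genes end at Mir488, and the pups lie far apart for Mir138-1, Mir138-2 and Mir124a-1, which are lower in pup 3.

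The pups were then compared gene by gene over 508 genes with at least 10 counts in sum. A two-sided exact binomial test compared the counts of each gene, given the library sizes after TMM scaling, and p-values were adjusted by Benjamini-Hochberg over these genes. Genes were called at a 2-fold difference where the adjusted p was under 0.05. Of the 8 genes 0 were called, where 6.69% of tested genes were. At any fold 6 of the 8 passed the adjusted p, 3 higher and 3 lower in pup 3, beside 23.8% of tested genes in each direction. Over both directions 47.6% of tested genes passed, and 79.1% of the 235 tested genes that averaged at least 100 CPM. Log2 differences below are pup 3 minus pup 1 on TMM sizes with 1 CPM added, each with its counting SE.

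Mir153 differed most, with a log2 difference of 0.90 (SE 0.02), or 1.87-fold higher in pup 3. The adjusted p of its exact binomial test was too small for the software to represent. Of the 407 detected genes, 92.9% of the others had a smaller absolute difference. Only 8 of the 508 tested genes had a larger log2 difference in favour of pup 3, and 0 of these 8 averaged 100 CPM or more. Mir488 followed at 0.62 (SE 0.05), or 1.53-fold higher in pup 3 (exact binomial test, adjusted p = 8.14e-32). These 2 of the 8 genes passed a 1.5-fold limit, both higher in pup 3 (3.94% of tested genes) and 0 lower (10.6%). In either direction 14.6% of tested genes did, and 13.2% of those averaging at least 100 CPM. With DESeq2 size factors the differences were 0.995 for Mir153, just under the 2-fold limit, and 0.71 for Mir488. On library totals they were 0.77 for Mir153 and 0.48 for Mir488. Mir488 thus did not reach 1.5-fold on library totals, with a ratio of CPM of 1.39.

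The other 6 genes lay closer together between the pups. Mir149 had a log2 difference of -0.29 (SE 0.01), or 0.817 times the level of pup 1, with an adjusted p in the exact binomial test again too small to represent. This was a larger absolute difference than that of 53.4% of the other detected genes. Mir128-1 had -0.12 (SE 0.01; exact binomial test, adjusted p = 1.74e-16) and Mir129-2 had -0.07 (SE 0.01; adjusted p = 1.21e-06). Mir137 had 0.14 (SE 0.01; exact binomial test, adjusted p = 5.45e-61). Mir128-2 had 0.0007 (SE 0.02; exact binomial test, adjusted p = 1) and Mir129-1 had 0.005 (SE 0.03; adjusted p = 0.939). On TMM sizes Mir128-2 had the smallest absolute difference of all 407 detected genes, while it was 0.09 with DESeq2 size factors and -0.14 on library totals. The median absolute difference was 0.13 over the 8 genes and 0.27 over the detected genes.

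The direction of the small differences rests on the scaling. Relative to TMM, library totals move every gene by -0.14 on the log2 scale and DESeq2 size factors by 0.09. Under both, Mir149 and Mir128-1 stayed lower and Mir153 and Mir488 higher in pup 3, although Mir128-1 then missed the threshold with DESeq2 size factors (exact binomial test, adjusted p = 0.0613). On library totals Mir137, Mir128-2 and Mir129-1 had differences below 0, and Mir137 missed the threshold (exact binomial test, adjusted p = 0.818). With DESeq2 size factors Mir129-2 had a difference above 0 and missed the threshold (exact binomial test, adjusted p = 0.32).

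**Figure D5:**
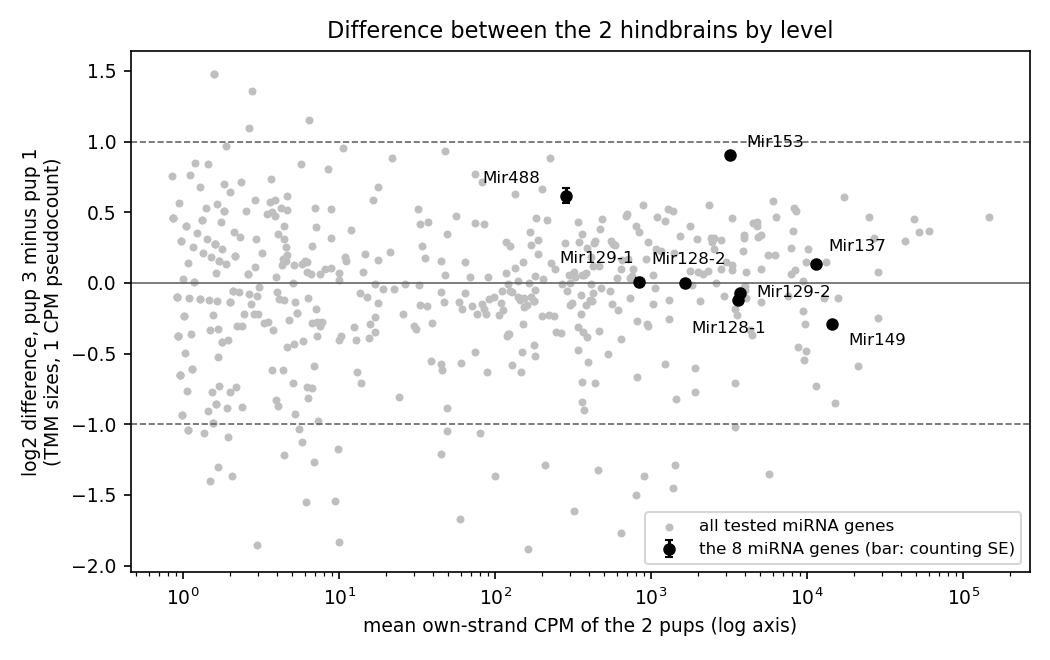
Log2 difference between the hindbrains, pup 3 minus pup 1, against mean own-strand CPM (log axis) for the 508 tested miRNA genes (grey) and the 8 miRNA genes (black, bars are the counting SE), with dashed lines at a 2-fold difference. Mir153 at 0.90 and Mir488 at 0.62 lie in the upper part of the cloud, and the other 6 genes lie between -0.29 and 0.14.

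Of the 29 other neuronal genes, 28 were tested and 4 were called at 2-fold, all lower in pup 3 (5.71% of tested genes), with 0 higher (0.984%). These were Mir138-1, Mir138-2, Mir124a-1 and Mir124a-3. Mir138-1 stood at 772 CPM (pup 3) and 2078 CPM (pup 1), and its log2 difference was -1.29 (exact binomial test, adjusted p too small to represent). Mir138-1 and Mir138-2 are copies that make the same mature miRNA, as are the Mir124a genes, so their counts are uncertain. At any fold 6 of the 28 passed the adjusted p higher and 13 lower in pup 3, beside 23.8% of tested genes in each direction. Their median absolute log2 difference was 0.23.

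In level over the 2 libraries, the gene nearest to each of the 8, by Euclidean distance in log2(CPM + 1), was as follows. Mir137 was nearest to Mir181c (distance 0.060), Mir149 to Mir99b (0.246) and Mir129-2 to Mir298 (0.050). Mir128-1 was nearest to Mir129-2 (0.072), itself of the set, and Mir128-2 to Mir323 (0.159). Mir129-1 was nearest to the oligodendrocyte gene Mir219a-2 (0.024) and Mir488 to Mir592 (0.021). Mir153 had the most distant neighbour, Mir872 (0.337), with 3671 CPM in pup 3 and 2938 CPM in pup 1. Nearness in 2 libraries of 1 group says that levels are alike and nothing more.

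Marker lists for position and for other cell types were read in the same libraries. Genes linked to hindbrain and spinal cord position were present, with 5 of 6 detected, and took 3.50% of own-strand counts in pup 3 and 5.26% in pup 1. Mir10a led this list at 24602 CPM (pup 3) and 32189 CPM (pup 1), with a log2 difference of -0.25, and Mir10b followed at 10051 CPM (pup 3) and 19914 CPM (pup 1), with -0.85. Endothelial and vessel wall genes (3 of 3 detected) took 6.55% in pup 3 and 5.53% in pup 1. Mir126a made up most of this share, at 55787 CPM (pup 3) and 47819 CPM (pup 1), with a log2 difference of 0.36. Mir143 was also higher in pup 3 (0.53), while Mir145a went the other way, with 326 CPM in pup 3 and 382 CPM in pup 1 (-0.09). Choroid plexus and ependyma genes (7 of 7) took 1.72% in pup 3 and 1.90% in pup 1, and oligodendrocyte genes (3 of 3) took 0.165% and 0.178% in pup 3 and pup 1. List shares are of own-strand totals, which move every gene by -0.14 on the log2 scale relative to TMM. On TMM sizes the oligodendrocyte genes had 0.01 (Mir219a-2), 0.05 (Mir338) and 0.07 (Mir219a-1), and 0 passed the adjusted p. Of the choroid plexus and ependyma genes, 1 passed it higher in pup 3 (Mir449a, 0.43) and 2 lower. Leukocyte and microglia genes (4 of 4 with an entry) took 0.0725% in pup 3 and 0.102% in pup 1, erythroid genes (3 of 3) 0.0308% and 0.0498%, and endocrine genes (2 of 2) 0.0740% and 0.0808%. The erythroid genes split, with log2 differences of -0.70 for Mir451a, 0.88 for Mir144 and 0.22 for Mir486, which did not pass the adjusted p. The endocrine genes also split, with 0.12 for Mir375 and -0.14 for Mir7-2. The muscle list took 0.0159% in pup 3 and 0.0174% in pup 1, with 1 of 5 detected and Mir1a-1, Mir133a-1 and Mir133a-2 at 0 counts in both pups. The position list had a lower share and the vessel list, mostly Mir126a, a higher share in pup 3, where Mir153 and Mir488 were higher. The part of these shifts in the differences of Mir153 and Mir488 was not tested. In whole tissue, fewer cells of a type and less of a miRNA per cell cannot be told apart.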

How the data were processed

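MicroRNA-seq was done on RNA of under 30 nucleotides from the hindbrains of 2 newborn mice. The authors deposited, per library, raw read counts per miRNA gene for either strand, the gene's own strand and the opposite strand, on assembly mm10 with genome annotation M4, per the text deposited beside the tables. Which aligner and counter were used is not given in the sources used here. Rows for unmapped, several-place and no-feature reads were left out of totals. Own-strand counts were used. IDs were matched without version to GENCODE M21 (1894 of 1973 genes; 5 of the 8 genes with the same version). Levels are CPM of own-strand totals. TMM sizes came from edgeR 4.0.16, size factors from DESeq2 1.42.0 and exact binomial tests from scipy 1.17.1. The comparison was tested on simulated data with counting error only, which cannot show how it behaves with spread between animals or with a wrong scaling. edgeR's quasi-likelihood test could not be used, because 1 group leaves no contrast. Named genes are the 8 genes, the nearest gene to each, list members of highest level and genes with a shared seed. Mir670, Gm24155 and the 4 called neuronal genes, with the neuronal copies near the detection level, were named after their values were seen. The 8 genes and all lists were chosen with earlier results of these data known. Mir9-1, Mir142 and Mir1a-2 had no entry under that symbol.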

Additional observations from a re-analysis of the deposited data

How the results depend on the processing

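All 8 genes were detected at 1, 5 and 10 CPM and in each pup alone. None has an opposite-strand count, so either-strand reads change only the library total and cannot change the order. They put Mir137 at 10988 CPM, a shift above its SD between pups. With 2 pups, leaving 1 out moves a mean by less than 1 SD by construction, so that setting is no test of a level: Mir153 stands at 4039 CPM without pup 1 and 2374 CPM without pup 3. In each pup alone 5 to 8 genes kept their places, and per kilobase of precursor 5 did. Without the 4 genes that share a 20-base stretch, the share of own-strand counts was 2.93%. Of the 8 genes 2 were called at 1.5-fold and 0 at 3-fold or under any other alternative. Over all genes, 34 calls became 18 with 100 counts in sum, 74 at 1.5-fold and 6 at 3-fold. On library totals the log2 difference was -0.0030 for Mir137, -0.14 for Mir128-2 and -0.13 for Mir129-1, and with DESeq2 size factors it was 0.018 for Mir129-2, each the opposite sign to TMM, as a scaling moves all genes alike. With DESeq2 size factors Mir128-2 and Mir129-1 passed the adjusted p, and Mir128-1 and Mir129-2 did not. On library totals Mir128-2 and Mir129-1 passed (exact binomial test, adjusted p = 5.15e-10 and 2.76e-05) and Mir137 did not. No paired analysis was possible because both libraries form 1 group. With 2 pups, the spread between animals is known only from a single difference per gene.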
